A study of Drosophila montana with 12 samples.

Results

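The contigs described here are *CG8564* (contig_29299) and *CG10177* (contig_29596) of the *D. montana* transcriptome, and every other contig carrying the same best blast hit. The hit of *CG8564* is shared by 3 contigs (contig_29299, contig_30849, and contig_31206) and that of *CG10177* by 2 (contig_29596 and contig_28526), which makes 5 of the 31233 contigs. The *D. melanogaster* names are those that the supplementary tables of the study pair with contig_29299 and contig_29596, and the other 3 contigs are called by contig name. *CG8564* and *CG10177* were chosen by their low counts at the critical day length in these same libraries, so their differences between light cycles are given as a description without a test.

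Counts came from 12 libraries, each of RNA from 10 pooled whole females aged 21 d, with 3 libraries per group. Diapausing females were sampled at LD 16:8 (16 h light and 8 h dark) and at the critical day length (CDL), nondiapausing females at the CDL and at LD 22:2 (22 h light and 2 h dark). All females were of isofemale lines from Finland, each line being the offspring of 1 wild-caught female, and no transgene or added agent is named for any group. Both LD groups hold 3 libraries of line 175OJ8, whereas each CDL group holds 1 library of each of lines 175OJ8, 265OJ8, and 3OL8, so that light cycle and line are partly confounded. The dark period at the CDL was 5.5 h; the study's methods give 18.5 h of light and the sample labels 17.5 h.

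Diapause in *D. montana* is an adult reproductive arrest, in which the ovaries stop developing before yolk is laid down in the eggs. Females enter it on short days, and the CDL is the day length at which diapausing and nondiapausing females occur in about equal shares. *CG8564* is annotated as a metallocarboxypeptidase, a class of zinc enzymes that remove single amino acids from the carboxyl end of proteins and peptides, and many of which digest food in the insect gut. *CG10177* is annotated as a protein kinase, a class of enzymes that transfer phosphate groups to other proteins.

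Diapausing libraries had 4679623 to 5764157 counts and TMM factors of 0.837 to 0.921, and nondiapausing libraries 2986505 to 6637623 counts and TMM factors of 1.09 to 1.15. Values are CPM, the counts scaled to a common library size with TMM factors, and since contig lengths were not used, levels are compared between libraries and not between contigs. Yolk protein genes separated the states in all libraries: *Yp2* had 23.5 to 124 CPM in diapausing and 258 to 453 CPM in nondiapausing females, and *Yp3* had 102 to 493 CPM and 848 to 1493 CPM. In whole females, fewer cells of a type and less RNA per cell cannot be told apart.

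*CG8564* was lowest in nondiapausing females at the CDL and highest in diapausing females at LD 16:8. Diapausing females at LD 16:8 had 299, 310.1, and 173 CPM in the 3 libraries, a mean of 261 ± 75.9 CPM (SD, n = 3). Diapausing females at the CDL had 78.3 CPM in line 175OJ8, 107 CPM in 265OJ8, and 158 CPM in 3OL8, a mean of 114 ± 40.6 CPM (SD, n = 3). All 3 CDL libraries of diapausing females were thus below all 3 libraries at LD 16:8. Nondiapausing females at the CDL had 39.2 CPM in line 175OJ8, 42.4 CPM in 265OJ8, and 62.6 CPM in 3OL8, a mean of 48.1 ± 12.7 CPM (SD, n = 3). At LD 22:2 the values were 137, 94.4, and 105 CPM, a mean of 112 ± 22.1 CPM (SD, n = 3). These groups did not overlap either. In the order of the means, nondiapausing females at LD 22:2 and diapausing females at the CDL were neighbours whose libraries overlapped, so the 12 libraries were not split by light cycle alone.

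*CG10177* was lower in all 6 libraries at the CDL than in the 6 others. Diapausing females at LD 16:8 had 71.8, 95.2, and 58.3 CPM, a mean of 75.1 ± 18.7 CPM (SD, n = 3). At the CDL they had 10.2 CPM in line 175OJ8, 24.3 CPM in 265OJ8, and 25.6 CPM in 3OL8, a mean of 20.02 ± 8.56 CPM (SD, n = 3). The highest diapausing CDL library was below the lowest library at LD 16:8. Nondiapausing females had 8.04 CPM in line 175OJ8, 15.8 CPM in 265OJ8, and 12.2 CPM in 3OL8 at the CDL, a mean of 11.99 ± 3.86 CPM (SD, n = 3). At LD 22:2 they had 36.8, 45.3, and 31.8 CPM, a mean of 38.0 ± 6.83 CPM (SD, n = 3). The groups of each state were again apart, and the only neighbouring groups whose libraries overlapped were the diapausing and nondiapausing females at the CDL.

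**Figure D1:**
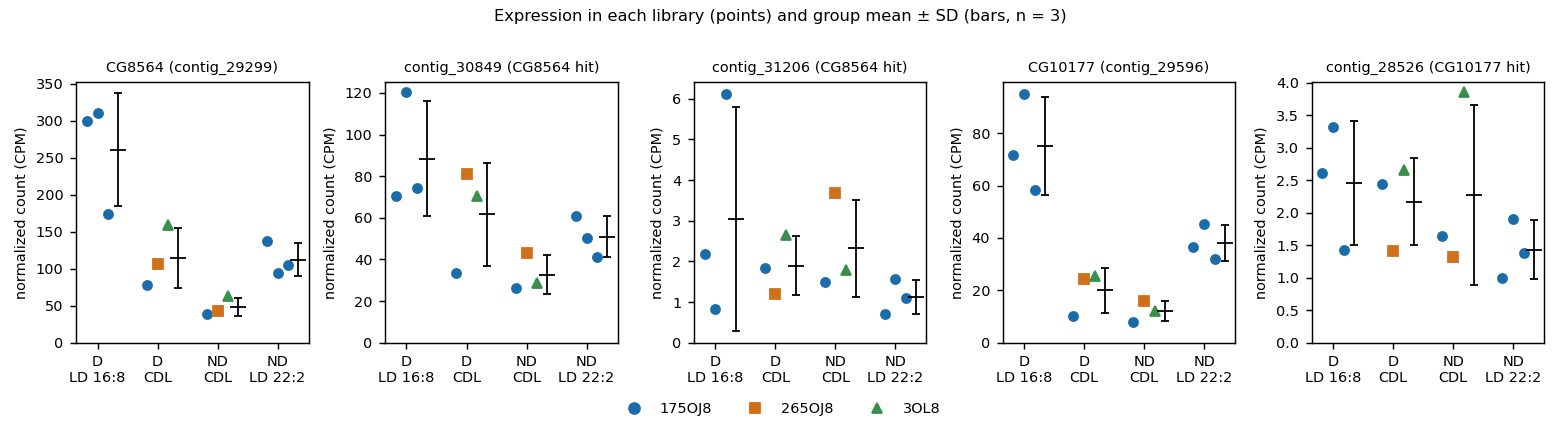
Normalized count (CPM, linear axis from 0) of the 5 contigs in each of the 12 libraries, by diapause state (D, diapausing; ND, nondiapausing) and light cycle; point shape and colour give the isofemale line, and bars the group mean ± SD (n = 3). *CG10177* has 8.04 to 25.6 CPM in the CDL libraries and 31.8 to 95.2 CPM in the others, whereas contig_31206 and contig_28526 have few counts and overlapping groups.

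For the day length difference that chose these contigs, *CG8564* had a log2 fold change of 1.19 (SE 0.355) for LD 16:8 over the CDL in diapausing females and of -1.23 (SE 0.357) for the CDL over LD 22:2 in nondiapausing females. The corresponding values of *CG10177* were 1.91 (SE 0.322) and -1.66 (SE 0.329). Of all contigs, 4.54% had every diapausing CDL library below every LD 16:8 library, 6.71% had every nondiapausing CDL library below every LD 22:2 library, and 0.199% had all 6 CDL libraries below the other 6. *CG10177* is in all 3 of these sets and *CG8564* in the first 2, as their choice implies. *Yp2* and *Yp3* moved with light cycle in the opposite direction within diapausing females, being 2.86-fold and 2.84-fold higher at the CDL than at LD 16:8. Their part in the result was not tested.

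Over the 3 lines together, the other contigs with the same hits did not share the separation by light cycle. Of these, contig_30849 had 70.7, 120.3, and 74.4 CPM in diapausing females at LD 16:8, and 33.3, 80.8, and 70.6 CPM at the CDL in lines 175OJ8, 265OJ8, and 3OL8. The LD 16:8 and CDL libraries overlapped, since only the 175OJ8 and 3OL8 libraries were below all 3 at LD 16:8. In nondiapausing females it had 26.1, 43.3, and 28.5 CPM at the CDL in the same order of lines, and 61.0, 50.2, and 41.3 CPM at LD 22:2, where the 265OJ8 library lay above the lowest LD 22:2 library. The log2 fold changes of contig_30849 were 0.52 (SE 0.341) in diapausing females and -0.64 (SE 0.344) in nondiapausing females, the same signs as for *CG8564* and smaller values. In line 175OJ8 alone, the CDL library of contig_30849 was below every library of the other light cycle in both states.

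The remaining contigs were near the lower limit of detection. Contig_31206 had 4 to 30 counts per library, 0.830 to 6.12 CPM, and contig_28526 had 7 to 16 counts, 0.997 to 3.86 CPM. At the lowest of these counts the counting error alone gives a coefficient of variation of 50% for contig_31206 and of 37.8% for contig_28526, against 6.88% for *CG8564* and 15.6% for *CG10177*. The tagwise biological coefficient of variation, the spread between libraries beyond counting error, was 0.412 for contig_31206 and 0.265 for contig_28526. For contig_31206 the log2 fold changes with day length were 0.69 (SE 0.602) in diapausing and 1.07 (SE 0.621) in nondiapausing females, and for contig_28526 they were 0.19 (SE 0.476) and 0.55 (SE 0.483).

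Contigs with 1 hit can be parts of 1 transcript, alleles, or related genes, and how reads were divided between them was not tested. The number of reads on contig_29299 per read on contig_30849 ranged from 0.98 in the nondiapausing 265OJ8 library at the CDL to 4.23 in the first diapausing library at LD 16:8. For contig_29596 and contig_28526 the ratio ranged from 3.15 to 40.9. Neither pair kept a fixed ratio over the 12 libraries.

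In line 175OJ8 alone, the only line sampled at all 3 light cycles, the CDL libraries of both genes had the lowest values of the 3 lines. For *CG8564*, the mean at LD 16:8 was 3.33 times the 175OJ8 library at the CDL in diapausing females, against 2.28 times the mean of the 3 lines. In nondiapausing females the mean at LD 22:2 was 2.86 times the 175OJ8 library and 2.33 times the mean of the lines. For *CG10177* the same ratios were 7.39 and 3.75 in diapausing females, and 4.72 and 3.17 in nondiapausing females. Each CDL value of a line is a single library, and these ratios include the values on which both genes were chosen, so they are given without a test.

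Lines 265OJ8 and 3OL8 were sampled only at the CDL, so their values can be set only against the LD libraries of 175OJ8. Against these, *CG10177* was 3.10-fold lower in the diapausing 265OJ8 library and 2.93-fold lower in the diapausing 3OL8 library, and 2.41-fold and 3.12-fold lower in the nondiapausing ones. *CG8564* was 2.45-fold and 1.65-fold lower in diapausing and 2.64-fold and 1.79-fold lower in nondiapausing females. All 12 ratios of both genes over the 3 lines pointed the same way. This follows from the lack of overlap described above, and both genes were chosen for low CDL values in these libraries. The lines also share the same LD means, so the ratios are not separate evidence. Contig_30849 differed by line too: in diapausing females it was 2.65-fold lower in 175OJ8 but 1.09-fold and 1.25-fold lower in 265OJ8 and 3OL8. In nondiapausing females it was 1.95-fold, 1.17-fold, and 1.78-fold lower in the same order of lines.

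**Figure D2:**
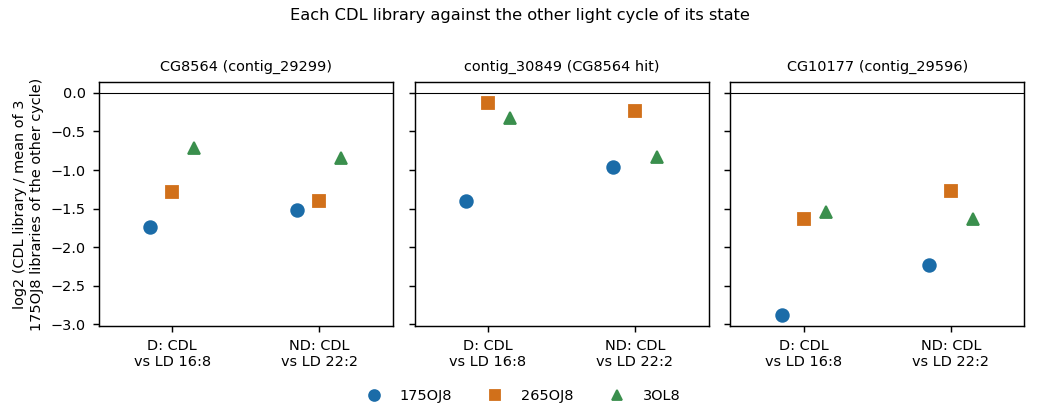
Log2 ratio of each CDL library to the mean of the 3 libraries of line 175OJ8 at the other light cycle of its state (LD 16:8 for diapausing, D; LD 22:2 for nondiapausing, ND), for *CG8564*, contig_30849, and *CG10177*; each point is 1 library. All points are below 0, and line 175OJ8 is the lowest in every panel, with *CG10177* 7.39-fold lower in diapausing and 4.72-fold lower in nondiapausing females.

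The lines themselves were compared with a likelihood ratio test of line in the GLM, in which 1.85% of all contigs were differentially expressed (DE, FDR below 0.05) among the lines. *CG10177* was higher by 1.11 on the log2 scale (SE 0.322) in 265OJ8 and by 0.99 (SE 0.333) in 3OL8 than in 175OJ8, which did not pass the threshold (edgeR likelihood ratio test, FDR = 0.0677). It passed when only the 6 CDL libraries were fitted (FDR = 0.00622), without LD 16:8 library 2 (FDR = 0.0167), and without LD 16:8 library 3 (FDR = 0.0228). In the other 14 of 17 alternatives *CG10177* did not pass. The quasi-likelihood test gave an FDR of 0.145. Leaving out the diapausing or the nondiapausing 175OJ8 library at the CDL gave an edgeR FDR of 0.944 or 0.267. *CG8564* differed by 0.28 (SE 0.366) and 0.85 (SE 0.367) in the same directions (FDR = 0.58). For contig_30849 the values were 0.99 (SE 0.343) and 0.61 (SE 0.348), with an FDR of 0.334, or of 0.0455 in the 6 CDL libraries alone. Contig_31206 and contig_28526 did not pass (FDR = 1 and 0.655).

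The next comparison asked whether these contigs also differ between diapausing and nondiapausing females. The study avoided such a direct comparison, because whole females mix tissues and the states differ greatly in ovary size. The part of ovary size in the differences below was not tested. Averaged over the light cycles of each state, this contrast does not use the day length differences that chose the contigs. *CG8564* ranged from 78.3 to 310.1 CPM (median 166 CPM) in the 6 diapausing libraries and from 39.2 to 137 CPM (median 78.5 CPM) in the 6 nondiapausing libraries. The states overlapped because nondiapausing libraries at LD 22:2 reached into the range of the diapausing CDL libraries. The log2 fold change was 1.24 (SE 0.252), 2.36-fold higher in diapausing females (edgeR likelihood ratio test, FDR = 4.58e-06). *CG10177* ranged from 10.2 to 95.2 CPM (median 42.0 CPM) and from 8.04 to 45.3 CPM (median 23.8 CPM), with a log2 fold change of 0.86 (SE 0.230), 1.82-fold higher in diapausing females (edgeR, FDR = 0.000474). Contig_30849 was also higher, by 0.86 (SE 0.242, edgeR FDR = 0.00101), with 33.3 to 120.3 CPM in diapausing and 26.1 to 61.0 CPM in nondiapausing females.

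Hence 3 of the 5 contigs were DE and higher in diapausing females, where 33.4% of all contigs were DE and higher and 31.0% DE and lower. The other 2 contigs did not pass: contig_31206 had a log2 fold change of 0.55 with a 95% interval from -0.29 to 1.40 (edgeR FDR = 0.249), and contig_28526 of 0.42 with an interval from -0.25 to 1.08 (edgeR FDR = 0.273). The median log2 fold change of the 5 contigs was 0.86, against 0.08 for all contigs. The 5 contigs carry only 2 blast hits and need not be 5 separate genes. Without TMM factors, the median of all contigs moved by -0.34 and the share of DE contigs that were higher in diapausing females from 51.9 to 34.5%. Under that scaling *CG8564* and *CG10177* remained higher in diapausing females (log2 fold change 0.89 and 0.51) and contig_30849 did not pass (log2 fold change 0.50, FDR = 0.0533). It did not pass in line 175OJ8 alone either (log2 fold change 0.58, FDR = 0.0787).

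At the CDL both states were sampled at the same light cycle and from the same 3 lines. Unlike the averaged contrast, this one is not free of the day length differences that chose both genes, since it uses their CDL values alone. *CG8564* was higher in the diapausing library of each line, 2.00-fold in 175OJ8, 2.52-fold in 265OJ8, and 2.53-fold in 3OL8, and no diapausing library overlapped a nondiapausing one. The log2 fold change was 1.25 (SE 0.358, edgeR FDR = 0.00193), and in line 175OJ8 alone, with 1 library per state, 0.998 (FDR = 0.193). *CG10177* was higher in the diapausing library of each line too, 1.26-fold, 1.54-fold, and 2.11-fold, but the libraries overlapped, the diapausing 175OJ8 library with 10.2 CPM being below the nondiapausing 265OJ8 and 3OL8 libraries. Its log2 fold change of 0.74 (SE 0.336) did not pass (edgeR FDR = 0.0566). With line as a term, which pairs the CDL libraries of a line, it was 0.68 and passed (edgeR FDR = 0.0229). With a replicate block of line at the CDL and of library number in the LD groups it was 0.68 (edgeR FDR = 0.00858). It also passed without the diapausing 175OJ8 library (1.06, FDR = 0.00296), without the nondiapausing 265OJ8 library (FDR = 0.0256), and without LD 16:8 library 2 (0.74, FDR = 0.0478). In all, *CG10177* passed in 7 of 23 alternatives. It did not pass without the nondiapausing 175OJ8 library (0.51, edgeR FDR = 0.272) or without TMM factors (0.39, edgeR FDR = 0.33). The quasi-likelihood test (FDR = 0.0683) and the DESeq2 Wald test (FDR = 0.0688) did not call it either.

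Contig_30849 was 1.28-fold, 1.87-fold, and 2.48-fold higher in the diapausing libraries of lines 175OJ8, 265OJ8, and 3OL8, with a log2 fold change of 0.91 (SE 0.345, edgeR FDR = 0.0202). This call was lost without the nondiapausing 175OJ8 library (FDR = 0.110), the diapausing 265OJ8 library (FDR = 0.134), the diapausing 3OL8 library (FDR = 0.0669), or the nondiapausing 3OL8 library (FDR = 0.0746). The log2 fold changes of contig_31206 and contig_28526 were -0.33 (SE 0.609, FDR = 0.676) and 0.05 (SE 0.478, FDR = 0.939). In all, 2 of the 5 contigs were DE and higher in diapausing females at the CDL, where 25.7% of all contigs were. With line as a term it was 3 of the 5, and 15927 of all contigs were DE in either direction against 15451 without it. The libraries of the states did not overlap in that direction for 28.2% of all contigs and for 1 of the 5, *CG8564*. Without TMM factors the share of DE contigs that were higher in diapausing females moved from 52.0 to 31.3%.

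Diapausing females at LD 16:8 and nondiapausing females at LD 22:2 were all of line 175OJ8, but in this pair of groups diapause state and light cycle cannot be told apart. Like the comparison at the CDL, this comparison is not free of the day length differences that chose both genes. *CG8564* was 2.33-fold higher in the diapausing females (log2 fold change 1.22, SE 0.354, edgeR FDR = 0.00233) and *CG10177* 1.98-fold higher (log2 fold change 0.99, SE 0.314, edgeR FDR = 0.00546). Contig_30849 was higher by 0.80 on the log2 scale (SE 0.341, edgeR FDR = 0.0408). For these 3 contigs every LD 16:8 library was above every LD 22:2 library, as for 27.6% of all contigs. Contig_31206 was higher by 1.43 (SE 0.614, edgeR FDR = 0.038), with libraries that overlapped, 0.830 to 6.12 CPM against 0.712 to 1.56 CPM, and contig_28526 had a log2 fold change of 0.78 (SE 0.481, FDR = 0.159).

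Thus 4 of the 5 contigs were DE and higher at LD 16:8 than at LD 22:2, where 24.8% of all contigs were. The call for contig_31206 rested on the third LD 16:8 library, without which its log2 fold change was 0.42 (FDR = 0.605), and it was also lost without the first (1.23, FDR = 0.132) or the third (1.47, FDR = 0.0777) LD 22:2 library and with the quasi-likelihood test (FDR = 0.0558). That for contig_30849 was lost without the second LD 16:8 library (0.51, FDR = 0.246) and without the second (0.79, FDR = 0.104) or the third (0.72, FDR = 0.128) LD 22:2 library. Without TMM factors *CG10177* did not pass (0.64, FDR = 0.0721), nor did contig_30849 or contig_31206, and the share of DE contigs higher in diapausing females moved from 50.0 to 30.9%.

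**Figure D3:**
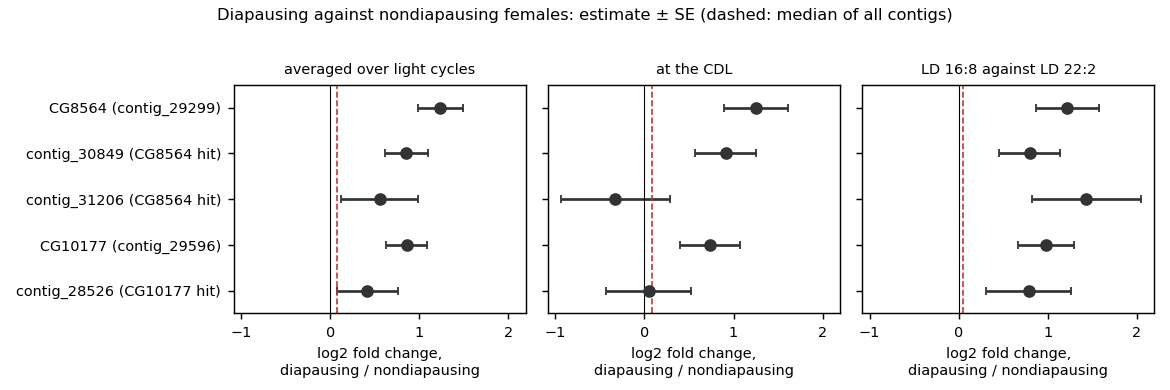
Log2 fold change ± SE of diapausing over nondiapausing females from the GLM for the 5 contigs, averaged over light cycles, at the CDL, and for LD 16:8 against LD 22:2; the dashed line is the median of all contigs. *CG8564* lies at 1.24, 1.25, and 1.22 and *CG10177* at 0.86, 0.74, and 0.99, while the SE of contig_31206 is the largest in each panel.

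*CG8564* was 2.36-fold, 2.39-fold, and 2.33-fold higher in diapausing females in the 3 comparisons of state, which share libraries. *CG10177* was 1.82-fold, 1.67-fold, and 1.98-fold higher. The first comparison, averaged over light cycles, is the mean of the others on the log2 scale, so its place between them is fixed. The tagwise biological coefficients of variation, which set the SE of these values, were 0.299 for *CG8564* and 0.260 for *CG10177*, against a common value of 0.237.

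Over the 12 libraries the levels of *CG8564* and *CG10177* had a Pearson's r of 0.887 and a Spearman's rho of 0.867 on the log2 CPM scale, which is given as a description, since both were chosen for the same differences between groups. Group differences were then removed, and the deviations from the 4 group means were compared. Within groups r was 0.598 (exact permutation test over all arrangements within groups, two-sided P = 0.136) and rho was 0.608 (P = 0.112 by the same exact test), with an adjusted P of 0.136 for both measures. After leaving out the 2 libraries furthest from the median deviation of *CG8564*, the diapausing 3OL8 library at the CDL and the third LD 16:8 library, r was 0.386 (exact permutation P = 0.444). In the CDL groups each library is of a different line, so the deviations there include differences between lines. For each gene, the deviation of a line had the same sign in both states, and the permutation did not keep lines paired. A relation within groups was not detectable with these libraries.

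**Figure D4:**
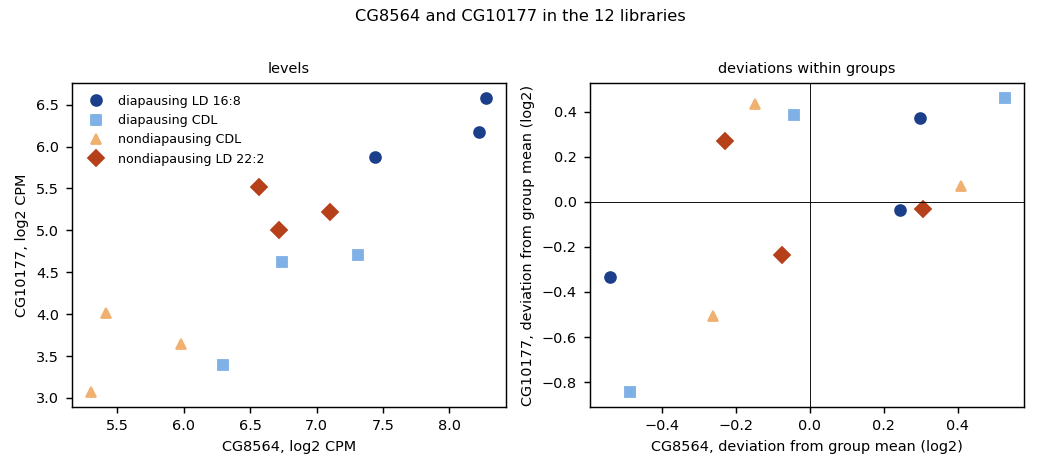
*CG8564* against *CG10177* in the 12 libraries, as log2 CPM (left) and as deviation from the mean of the group on the log2 scale (right); each point is 1 library and shapes give the 4 groups. The levels rise together from the nondiapausing CDL to the diapausing LD 16:8 libraries (r = 0.887), and the deviations within groups have an r of 0.598.

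Likeness of pattern was measured as Pearson's r of log2 CPM over the 12 libraries among 30474 contigs averaging 1 CPM or more. The contigs most like *CG8564* were contig_15186 (r = 0.977), contig_30303 (r = 0.969), contig_12086 (r = 0.963), contig_8660 (r = 0.962), and contig_25602 (r = 0.960). Contig_15186 had mean levels of 830 CPM at LD 16:8, 311 CPM at LD 22:2, and, at the CDL, 367 CPM in diapausing and 154 CPM in nondiapausing females; the order of the 4 groups was that of *CG8564*. The contigs most like *CG10177* were contig_25825 (r = 0.960), contig_9720 (r = 0.949), contig_11911 (r = 0.944), contig_12086 (r = 0.939), and contig_11467 (r = 0.939). Contig_12086 was thus near both genes, with mean levels of 58.3 CPM at LD 16:8, 31.2 CPM and 18.5 CPM in diapausing and nondiapausing CDL libraries, and 35.6 CPM at LD 22:2.

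By this measure *CG10177* ranked 159th among all contigs in likeness to *CG8564*, and *CG8564* ranked 39th in likeness to *CG10177*. Contig_30849 had an r of 0.844 with *CG8564* and of 0.845 with *CG10177*, whereas contig_31206 had an r of -0.101 with *CG8564* and contig_28526 of 0.037 with *CG10177*. Among 4671 pairs of contigs with a common protein hit, taken from hits with 2 or 3 contigs, the median r was 0.565, with quartiles of 0.146 and 0.811.

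Other genes for proteolytic enzymes and for protein kinases that the study's tables pair with a contig were set beside these 2 genes. They entered those tables for day length differences in these same libraries, so that their day length differences are not shown. Among 5 other proteolysis genes, averaged over light cycles, 2 were DE and higher in diapausing females (*CG31326* and *CG1632*), 1 was DE and lower (*CG4927*), and *CG7542* and *CG13283* did not pass, beside the 33.4% of all contigs that were DE and higher and the 31.0% that were DE and lower. Among 5 other kinase genes, *wit*, a receptor kinase for bone morphogenetic protein signals, was DE and higher, *Gprk2*, a kinase of G protein-coupled receptors, and *Lrrk*, a leucine-rich repeat kinase, were DE and lower, and *slik* and *Abl* did not pass. With so few genes, these counts are near the shares of all contigs. The call for *Gprk2* was lost without any 1 of 10 libraries (FDR from 0.0521 to 0.0948) and held only without the diapausing 175OJ8 library at the CDL or LD 16:8 library 3.

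The level of most of these genes was set by 1 library. In *CG31326*, *CG1632*, *CG7542*, *CG4927*, *wit*, and *Lrrk*, the highest library had at least 23 times the next highest, for example 1876 CPM against 6.04 CPM in *Lrrk*. In each of these genes that library was at LD 16:8 or LD 22:2, so it entered both the day length difference and the contrast of states. Their state calls with all libraries are therefore not free of the choice of these genes. In *CG8564* and *CG10177* the highest library had 1.04 and 1.33 times the next. *CG31326* had a log2 fold change of 3.28, or of 0.58 without LD 16:8 library 3 (edgeR FDR = 0.0448), and *CG1632* of 3.51, or of 1.06 without LD 16:8 library 2 (edgeR FDR = 0.00393), so that both calls held. Without LD 16:8 library 2, *wit* had a log2 fold change of -0.07 (FDR = 0.768), and without LD 22:2 library 2 that of *Lrrk* was 0.30 (FDR = 0.572). *CG4927* fell short without LD 22:2 library 1 (-0.39, FDR = 0.251), and *CG7542* was higher in diapausing females without LD 22:2 library 2 (1.04, edgeR FDR = 3.87e-06) and lower without LD 22:2 library 1 (-1.44, FDR = 0.0117) or 3 (-1.44, FDR = 0.0199). *Abl* was lower without the diapausing 3OL8 library at the CDL (-0.91, FDR = 0.00228), and *CG13283* higher without the nondiapausing 265OJ8 library (1.05, FDR = 0.0225).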

How the data were processed

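RNA-seq counts of 31233 contigs in 12 libraries were analysed. The counts are as deposited by the authors: SOLiD reads were trimmed, error-corrected, and mapped to the *de novo* transcriptome with CLC Genomics Workbench, and reads mapping uniquely to a contig were counted with HTSeq. Reads from near-identical contigs can be lost or split by this step. Counts were fitted as 4 groups in edgeR 4.0.16 (R 4.3.3) with TMM factors, Cox-Reid tagwise dispersions, no filter, and a prior count of 0.125, and tested by likelihood ratio with Benjamini-Hochberg adjustment over all contigs (FDR 0.05), as the study's methods use a GLM of this kind. Log2 CPM for correlations used a prior count of 2.

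Contigs and gene lists were chosen with earlier results of these data known. The genes named are the members, the proteolysis and kinase genes of the study's tables, *Yp2* and *Yp3* as a check of diapause state, and the 5 contigs most like each of the 2 genes. Libraries of a group are separate pools of females. All pairs differed beyond sampling noise (chi-square per contig from 9.09 to 23.7). Libraries of the same line at the CDL deviated together (r = 0.201, 0.137, and 0.302 for 175OJ8, 265OJ8, and 3OL8). The main fit of diapause state did not use this pairing, which enters only the alternatives with a line term or a replicate block. Same-numbered LD 16:8 and LD 22:2 libraries did not deviate together (r = -0.0197, -0.111, and 0.0573). Alternatives were edgeR's quasi-likelihood test, DESeq2 1.42.0, other scalings, a filter with a minimum count of 10, a line term, a replicate block, line 175OJ8 alone, and each library left out. The contrasts of diapause state were run on simulated counts with known state differences and no line effects. The test of lines and the permutation test were not run on simulated data. Sequences of the contigs were not used here.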

Additional observations from a re-analysis of the deposited data

How the results depend on the processing

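For *CG8564* and *CG10177*, the difference between diapausing and nondiapausing females averaged over light cycles kept its direction and stayed below FDR 0.05 under all 22 alternatives (log2 fold change from 0.89 to 1.35 and from 0.51 to 1.02). The number of the 5 contigs DE in that comparison was 3, except 2 without TMM factors and 2 in line 175OJ8 alone. Diapause state and light cycle are partly confounded in that comparison. Where not stated otherwise, values below are log2 fold changes and the cause of a change was not tested.

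Without TMM factors, contig_30849 had 0.50 averaged over light cycles (FDR = 0.0533), 0.56 at the CDL (FDR = 0.157), and 0.45 (FDR = 0.268) for LD 16:8 against LD 22:2, where contig_31206 had 1.13 (FDR = 0.114) and *CG10177* 0.64 (FDR = 0.0721). At the CDL contig_28526 changed sign to -0.29, and averaged over light cycles *slik* to -0.15. With the quasi-likelihood test contig_31206 had 1.45 for LD 16:8 against LD 22:2, alone (FDR = 0.0558) and with a line term (FDR = 0.0554), and *Abl* had 0.0012. With the count filter *CG10177* at the CDL had 0.75 (FDR = 0.0486) and *Abl* 0.0072.

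With a line term *CG10177* at the CDL had 0.68 (FDR = 0.0229, quasi-likelihood 0.023). The day length values then moved to 1.14 (contig_30849) and 2.71 (*CG10177*) in diapausing and to -1.63 (*CG8564*), -1.19 (contig_30849), and -2.40 (*CG10177*) in nondiapausing females. The replicate block pairs the CDL libraries by line and the LD 16:8 and LD 22:2 libraries by number alone, and those numbers were not taken as pairs. With it *CG10177* at the CDL had 0.68 (FDR = 0.00858), contig_31206 had 1.21 for LD 16:8 against LD 22:2 (FDR = 0.0851), and *CG7542* changed sign to 0.40. The block changed no other call of the 5 contigs; among the list genes *CG4927* (-1.28, FDR = 0.0644), *wit* (0.75, FDR = 0.236), and *Lrrk* (-0.69, FDR = 0.492) did not pass with it, while with the line term they did (-3.24, FDR = 0.000157; 2.38, FDR = 0.00153; -3.84, FDR = 0.000234).

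In line 175OJ8 alone, which leaves 1 library in each CDL group, assumed to vary like the others, contig_30849 had 0.58 averaged over light cycles (FDR = 0.0787). At the CDL *CG8564* had 0.998 (FDR = 0.193), contig_30849 0.36 (FDR = 0.641), contig_31206 0.29, and 7354 contigs were DE against 15451. Day length values in diapausing females were 1.74 (*CG8564*), 1.41 (contig_30849), and 2.88 (*CG10177*), and in nondiapausing females 0.41 (contig_31206) and -2.23 (*CG10177*). Averaged over light cycles, *CG13283* (1.55, FDR = 0.00277) and *Abl* (-0.92, FDR = 0.0059) passed in this line and *wit* (2.39, FDR = 0.0548) and *Gprk2* (-0.27, FDR = 0.304) did not. Of the comparison of lines, the 6 CDL libraries alone gave 3OL8 values of 0.62 for contig_30849 (FDR = 0.0455) and 0.99 for *CG10177* (FDR = 0.00622), and 329 contigs were DE by the quasi-likelihood test, against 579.

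Leaving out each library in turn gave, at the CDL, ranges of 0.51 to 1.06 for *CG10177*, 0.67 to 1.21 for contig_30849, -0.63 to 0.21 for contig_31206, and -0.25 to 0.53 for contig_28526. For LD 16:8 against LD 22:2 the ranges were 0.513 to 1.0 for contig_30849 and 0.42 to 1.89 for contig_31206. For 3OL8 against 175OJ8 they were 0.67 to 1.25 for *CG10177* and -0.24 to 1.0 for contig_31206, with 279 (without the diapausing 3OL8 library) to 701 contigs DE. For contig_31206, day length values of diapausing females ranged from -0.32 to 1.14 and those of nondiapausing females from 0.55 to 1.35. Averaged over light cycles, *Abl* ran from -0.91 to 0.23, *wit* from -0.0703 to 2.67, *slik* from -0.0579 to 0.40, *CG7542* from -1.44 to 1.04, and *Lrrk* from -4.28 to 0.30. With 3 libraries per group, and 1 per line and state at the CDL, the spread between libraries limits these comparisons, and in contig_31206 and contig_28526 few counts add to it.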
